A study of Mus musculus with 13 samples.

Results

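The 8 genes described here, Hmgcs1, Idi1, Fdps, Fdft1, Sqle, Lss, Insig1 and Srebf2, belong to cholesterol synthesis and its control in mouse embryonic stem cells. They were taken by gene symbol from a table of 24470 genes, and all 8 were found there. Of these, 6 encode enzymes of the pathway, Insig1 encodes a sterol-dependent inhibitor and Srebf2 encodes the transcription factor SREBP2. None of the 8 encodes a receptor or carrier for cholesterol uptake, so uptake is described from a separate list below.

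The cells were of the mouse line E14 (129/Ola background), grown in GMEM with fetal bovine serum and leukemia inhibitory factor, with no treatment or genetic change named in the labels. In the low-input protocol, open chromatin was cut in permeabilised cells by the transposase Tn5, and polyadenylated RNA was then caught on oligo-dT beads from the same lysate, which gave an ATAC library (open chromatin) and an mRNA library per sample. Experiment 1 used 10000 and 20000 cells and experiment 2, on another day, used 5000, 10000 and 20000 cells, 1 library each. Omni-ATAC, an ATAC protocol used as the benchmark, was run with 5000, 10000 and 50000 cells, 1 library each. The groups compared here therefore shared 1 cell line and 1 medium, and the experiments differed in day. The libraries of an experiment share its day, so p-values between experiments rest on the spread between libraries and carry no replication of days. These are bulk libraries, in which fewer cells of a type and less RNA per cell cannot be told apart.

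Cholesterol is built from acetyl-CoA through mevalonate and the isoprenoid units to squalene, which is then closed into lanosterol and trimmed to cholesterol. When membranes of the endoplasmic reticulum are poor in sterol, the escort protein SCAP carries SREBP2 to the Golgi, where proteases release a fragment that enters the nucleus and switches on the genes of the pathway through sterol regulatory elements. When sterol is plentiful, INSIG proteins hold SCAP back. Cultured cells in serum can meet their need for cholesterol by synthesis and by uptake of lipoproteins.

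The mRNA libraries held 13727122 to 20426252 counts, and levels are given as CPM, counts scaled to a common library total. A count of 0 allows a level of up to 0.147 to 0.219 CPM, which is 3 counts in the deepest and the shallowest library. Markers of embryonic stem cells fitted the label: 10 of 10 had a mean of at least 10 CPM, and their summed level was 3526 to 3681 CPM in every library. Between experiments 3 of the 10 were called by edgeR, against 12.5% of all genes tested (6.76% lower and 5.75% higher): Utf1 fell (log2 fold change -0.57, adjusted p = 0.00145), and Zfp42 (0.38, 0.0282) and Klf4 (0.42, 0.0381) rose. Of 8 fibroblast genes, Col3a1 and Lum were at 0 in all 5 libraries. The summed level of the 8 was 31.4 and 35.3 CPM in experiment 1 and 10.3, 8.71 and 7.54 CPM in experiment 2, most of it Thy1. Of the 2 fibroblast genes tested, 1 was called, Thy1, which was lower in experiment 2 (log2 fold change -2.19, edgeR adjusted p = 6.75e-08). The summed level of 8 primitive endoderm genes was 40.4 to 55.0 CPM, most of it Lama1. Of its 5 tested genes, 4 had a log2 fold change below 0 between experiments, with a median of -2.10, and 2 were called lower by edgeR. These were Dab2, with means of 6.29 and 0.76 CPM in experiments 1 and 2, and Gata6, with means of 2.34 and 0.147 CPM. Low genes such as these pass the test's count filter by the experiment in which they are higher, here mostly experiment 1. The signs and the median of the primitive endoderm genes are therefore tilted by the filter and are not read as a shared fall. Between experiments, genes of chromosome 8, which carries Zfp42, had a median log2 fold change of 0.46. Genes of chromosome 15, which carries Sqle and Srebf2, had one of -0.25. The part of these shifts in the results below was not tested.

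The sequences upstream of 4 members are shown because the peaks described below lie over them and because they hold the letter patterns of the pathway's known regulators. RefSeq's promoter table (GRCm38.p6, the same coordinates as mm10) matched 5 of the 8 members, and the 250 bases before each start were searched on both strands. The patterns were TCACNCCAC, the form of the sterol regulatory element used here, CCAAT, the box bound by NF-Y, GGGCGG, the GC box bound by Sp1, and CACGTG, an E-box. Sequences run 5′ to 3′ on the gene's strand, with matches in capitals (a match on the other strand appears as its complement, ATTGG for CCAAT and CCGCCC for GGGCGG). They are the upstream windows of Hmgcs1 (chr13:119690101-119690350, plus strand), Idi1 (chr13:8885356-8885605, plus strand), Insig1 (chr5:28071162-28071411, plus strand) and Srebf2 (chr15:82147019-82147268, plus strand).
Hmgcs1: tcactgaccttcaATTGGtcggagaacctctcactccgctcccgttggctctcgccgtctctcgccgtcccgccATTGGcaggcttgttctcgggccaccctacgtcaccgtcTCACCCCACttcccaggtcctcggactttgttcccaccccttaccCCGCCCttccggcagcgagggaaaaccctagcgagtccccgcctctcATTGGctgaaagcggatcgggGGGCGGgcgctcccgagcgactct
Idi1: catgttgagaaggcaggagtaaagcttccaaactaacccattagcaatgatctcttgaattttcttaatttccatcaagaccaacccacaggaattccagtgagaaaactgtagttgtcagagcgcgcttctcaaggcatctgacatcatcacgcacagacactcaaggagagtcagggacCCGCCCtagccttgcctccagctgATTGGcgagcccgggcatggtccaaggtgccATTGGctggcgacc
Insig1: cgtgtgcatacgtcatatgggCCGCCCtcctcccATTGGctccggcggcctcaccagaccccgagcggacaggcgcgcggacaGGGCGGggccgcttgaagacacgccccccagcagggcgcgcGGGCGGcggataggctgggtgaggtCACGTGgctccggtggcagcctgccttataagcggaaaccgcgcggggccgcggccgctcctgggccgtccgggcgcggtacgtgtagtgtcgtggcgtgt
Srebf2: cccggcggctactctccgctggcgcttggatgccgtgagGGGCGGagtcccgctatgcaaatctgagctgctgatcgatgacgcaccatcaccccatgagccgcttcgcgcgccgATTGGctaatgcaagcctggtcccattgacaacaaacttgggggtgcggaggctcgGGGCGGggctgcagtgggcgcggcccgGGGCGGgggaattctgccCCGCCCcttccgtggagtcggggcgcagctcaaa

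The Hmgcs1 window held the only exact match to TCACNCCAC among the 5, TCACCCCAC, at 137 to 129 bases before the start. Other forms of the sterol regulatory element were not searched, so a window without this match may still hold one. It also held 3 CCAAT boxes, which begin 237, 176 and 45 bases before the start, and 2 GC boxes. The pattern TCACNCCAC occurs in 1.05% of 32851 RefSeq promoter windows of this length. A CCAAT match was present in 5 of 5 member windows and in 33.8% of all windows, and in each of the 5 members it lay on the minus strand. A GC box was present in 5 of 5 and in 32.7% of all windows. Srebf2 held 4 GC boxes and 1 CCAAT box, Lss 2 and 1, and Idi1 1 and 2. Insig1 held 3 GC boxes, 1 CCAAT box and the only CACGTG, at 101 to 96 bases before the start, a pattern found in 6.02% of windows. No matches overlapped each other. The members' windows held 51.2% (Idi1) to 73.6% (Lss) G and C, against a median of 52.4%. A match here is a description of the reference letters, which are not those of the E14 line, and says nothing of binding.

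A peak lay within 1000 bp of the annotated start for 6 members in all 8 ATAC lists. These were Hmgcs1, Sqle, Idi1, Insig1, Srebf2 and Fdps. Among 6485 genes averaging 10 CPM or more, 32.2% had a peak in all 8 lists. Lss (mm10 chromosome 10, 76531605 to 76557139, plus strand) had a peak in 7 lists and lacked one in Omni-ATAC from 5000 cells, the shortest list with 9097 intervals. Fdft1 had none in any list. By library, 7 of 8 members had a peak in every list but that one, where 6 did. The share of genes of at least 10 CPM with a peak was 61.7% in experiment 1 from 10000 cells and 71.2% from 20000 cells. In experiment 2 it was 62.7% from 5000 cells, 76.9% from 10000 cells and 88.8% from 20000 cells. In Omni-ATAC it was 38.8% from 5000 cells, 75.9% from 10000 cells and 95.7% from 50000 cells. Idi1, Insig1 and Srebf2 had means under 10 CPM and are not among the genes behind these shares. The lists hold intervals only, and the depth of the ATAC libraries is unknown, so a missing peak is not a measure of closed chromatin.

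**Figure D1:**
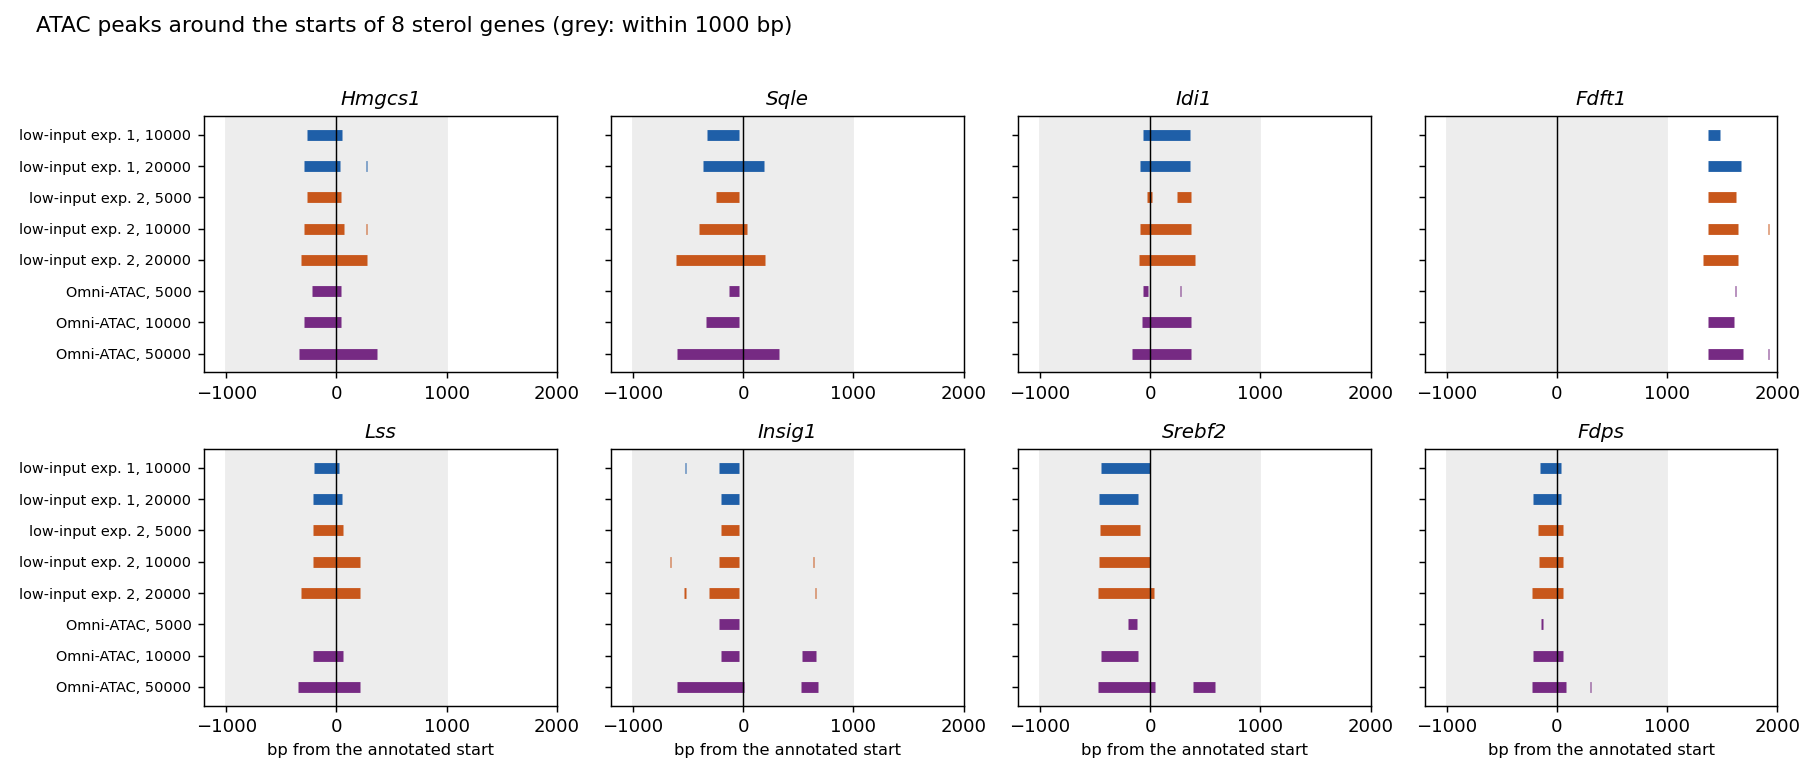
Peaks near the annotated start of each of the 8 genes, 1 row per ATAC list, on an axis of distance from the start in bp along the direction of transcription; bars are the deposited intervals. Fdft1 alone has no interval within 1000 bp of the start, and its nearest interval in each list begins 1329 to 1617 bp downstream.

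How far the peaks reached varied between lists, most in bp at Sqle, where the widest ran from 91 to 928 bp. Over the Hmgcs1 start (mm10 chromosome 13, 119690351 to 119708260, plus strand) a peak covered the start in 8 of 8 lists, and the widest was 263 to 712 bp. The sterol regulatory element of Hmgcs1 printed above lay under a peak in 8 of 8 lists. At Insig1 (chromosome 5, 28071412 to 28078662, plus strand) the main peak ended 36 bp before the start in 7 of 8 lists, to the base, and only the list from 50000 cells covered the start. The E-box of Insig1 and the GC boxes nearest to it were under a peak in all 8 lists. One same peak edge in 7 or 8 lists was found for 3.21% of 2090 promoters with a peak in all lists, counted over genes of at least 10 CPM, which Insig1 is not. At Sqle (chromosome 15, 59315092 to 59331193, plus strand) the peak ended 39 bp before the start in 4 lists and ran across it in the other 4. At Srebf2 (chromosome 15, 82147269 to 82204960, plus strand) it covered the start in 4 lists and ended 92 to 119 bp before it in the rest, and the CCAAT box lay under a peak in 8 of 8 lists. Idi1 (chromosome 13, 8885606 to 8892396, plus strand) and Fdps (chromosome 3, 89093588 to 89101967, minus strand) had the start covered in 7 lists each. For each of the 7 members with promoter peaks the widest one was found in Omni-ATAC from 50000 cells. That list was the longest, with 95457 intervals, and had the highest median width over all its intervals, 96 bp. The share of all promoters with their widest peak in that list was not counted, so this is not read as a trait of the members.

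Fdft1, which joins farnesyl units into squalene, differed from the other members in position. Its annotated start (chromosome 14, 63145150 to 63179578, minus strand) had no peak within 1000 bp, but an interval began 1371 bp downstream of it in 5 lists, on the same base. In the other lists the nearest interval was 1329 bp, 1369 bp and, for Omni-ATAC from 5000 cells, 1617 bp downstream. Within 2500 bp, Fdft1 had an interval in 8 of 8 lists, and the authors' unified list held a region 1371 to 1644 bp downstream. The RefSeq table places the gene's start a further 2109 bp upstream of the one in the count table, so these intervals lie inside the gene by both annotations. The nearest start of another gene to any member's start, that of Zfp572 beside Sqle, was 8144 bp away.

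The early and branch-point enzymes came next in the mRNA libraries. Hmgcs1, the cytosolic HMG-CoA synthase that makes the precursor of mevalonate, stood at 12.6 CPM from 10000 cells and 19.5 CPM from 20000 cells in experiment 1. In experiment 2 it stood at 9.96 CPM from 5000 cells, 16.4 CPM from 10000 cells and 16.1 CPM from 20000 cells. The experiments overlapped, and the lowest and the highest library differed 1.95-fold. The difference between experiments over 10000 and 20000 cells was 0.02 ± 0.22 (log2 fold change, SE, edgeR's quasi-likelihood test, adjusted p = 0.974). Its 95% interval ran from -0.42 to 0.45.

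Idi1, the isomerase that supplies the reactive isoprenoid unit for chain building, had few reads in every library. Its level was 1.09 and 0.736 CPM (15 and 11 counts) in experiment 1 from 10000 and 20000 cells. In experiment 2 it was 0.119 CPM from 5000 cells (2 counts, 95% Wilson interval 0.0327 to 0.435), 2.13 CPM from 10000 cells (33 counts, 1.52 to 2.99) and 1.03 CPM from 20000 cells (21 counts). The library from 5000 cells was the lowest and stood at 0.0794 of the pooled level of the other experiment 2 libraries, with an exact interval of 0.00938 to 0.301. Among genes averaging 0.5 to 2 CPM, 24.4% of 2534 had less than 50% of both other libraries' level there. The share that fell as far as Idi1 was not counted. The intervals given for Idi1 carry counting error alone: the libraries have no molecular identifiers, so copies made by PCR are counted too. Between experiments the log2 fold change of Idi1 was 0.78 ± 0.78 (SE, edgeR adjusted p = 0.59). It was 0.18 without the experiment 2 library from 10000 cells, 1.23 without that from 20000 cells and 0.27 with all 5 libraries. How reads that match several places were counted is not given in the sources used here, so genes with close copies, such as Idi1 with its paralog Idi2, are uncertain.

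Fdps, the synthase of farnesyl diphosphate, where the sterol and the other isoprenoid branches part, was the steadiest member. It stood at 163.9 and 157.3 CPM in experiment 1 from 10000 and 20000 cells, and at 130.3, 142.5 and 171.3 CPM in experiment 2 from 5000, 10000 and 20000 cells. Its coefficient of variation over the 5 libraries was 10.8%, against a median of 15.0% over 6485 genes of at least 10 CPM. The difference between experiments was -0.03 ± 0.12 (log2, SE, edgeR adjusted p = 0.912; 95% interval -0.28 to 0.21). The files give no transcript lengths, so levels are not compared between genes here.

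Of the enzymes committed to sterol, Sqle fell between the experiments. Sqle encodes squalene epoxidase, which adds the oxygen that lets squalene close into rings. It stood at 78.3 and 84.2 CPM in experiment 1 from 10000 and 20000 cells, and at 49.5, 51.1 and 59.9 CPM in experiment 2 from 5000, 10000 and 20000 cells. Both libraries of experiment 1 lay above all 3 of experiment 2. The means over 10000 and 20000 cells were 81.3 ± 4.19 and 55.5 ± 6.18 CPM (SD, n = 2 libraries each), a fold of 0.684 and a log2 fold change of -0.55 ± 0.14 (SE, edgeR adjusted p = 0.0100). With the library from 5000 cells added, the log2 fold change was -0.56 ± 0.13 and the edgeR adjusted p 0.00583. The call was lost without the experiment 2 library from 10000 cells (log2 fold change -0.43, edgeR adjusted p = 0.137) and without the experiment 1 library from 20000 cells (-0.48, 0.0677). Sqle lies on chromosome 15, where the median log2 fold change of 310 genes of at least 10 CPM was -0.25 and 25.5% of them were called lower, against 8.11% of all such genes. Relative to that median Sqle lay at -0.30, and 19.4% of the chromosome's genes had a lower value.

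Fdft1, farnesyl-diphosphate farnesyltransferase (squalene synthase), stood at 28.6 and 30.4 CPM in experiment 1 from 10000 and 20000 cells. In experiment 2 it stood at 19.5, 22.7 and 27.9 CPM from 5000, 10000 and 20000 cells. The experiments did not overlap, but the highest library of experiment 2 came within 1 CPM of the lowest of experiment 1. The difference did not pass the test (log2 fold change -0.22 ± 0.18 SE, edgeR adjusted p = 0.482; 95% interval -0.57 to 0.13). On chromosome 14, which carries Fdft1, the median log2 fold change was 0.20. The last 774 bp of Fdft1 overlap Ctsb on the opposite strand (mean 34.4 CPM), and whether the counting used strand is not given in the sources used here. CPM ranges of the 2 and 3 libraries did not overlap for 2 of 8 members, Sqle and Fdft1, and for 42.4% of 11512 genes of at least 1 CPM, so the members' share was not above the background.

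Lss, lanosterol synthase, which closes the rings, stood at 37.7 and 30.0 CPM in experiment 1 from 10000 and 20000 cells. In experiment 2 it stood at 31.0, 26.9 and 30.4 CPM from 5000, 10000 and 20000 cells. The ranges overlapped, with 1 high library, that of experiment 1 from 10000 cells. The log2 fold change between experiments was -0.24 ± 0.17 (SE, edgeR adjusted p = 0.422).

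The regulators Insig1 and Srebf2 did not pass the test between experiments. Insig1, itself a target of SREBP2 that holds SCAP in the endoplasmic reticulum, stood at 2.70 and 4.88 CPM in experiment 1 and at 3.46, 4.39 and 3.57 CPM in experiment 2, in the same order of cell numbers. The values of experiment 2 lay inside the range of experiment 1, and counts of 37 to 73 per library limit the precision. Its log2 fold change was 0.07 ± 0.42 (SE, edgeR adjusted p = 0.951; 95% interval -0.75 to 0.89). Srebf2 stood at 10.1 and 9.57 CPM in experiment 1 and at 7.22, 7.29 and 10.0 CPM in experiment 2. The library from 20000 cells of experiment 2 lay between the values of experiment 1, and the other 2 were lower. The log2 fold change was -0.18 ± 0.26 (SE, edgeR adjusted p = 0.742), and its 95% interval ran from -0.69 to 0.34. Mir33, a microRNA gene inside Srebf2, had 0 counts, but these libraries hold polyadenylated RNA and do not measure mature microRNAs.

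**Figure D2:**
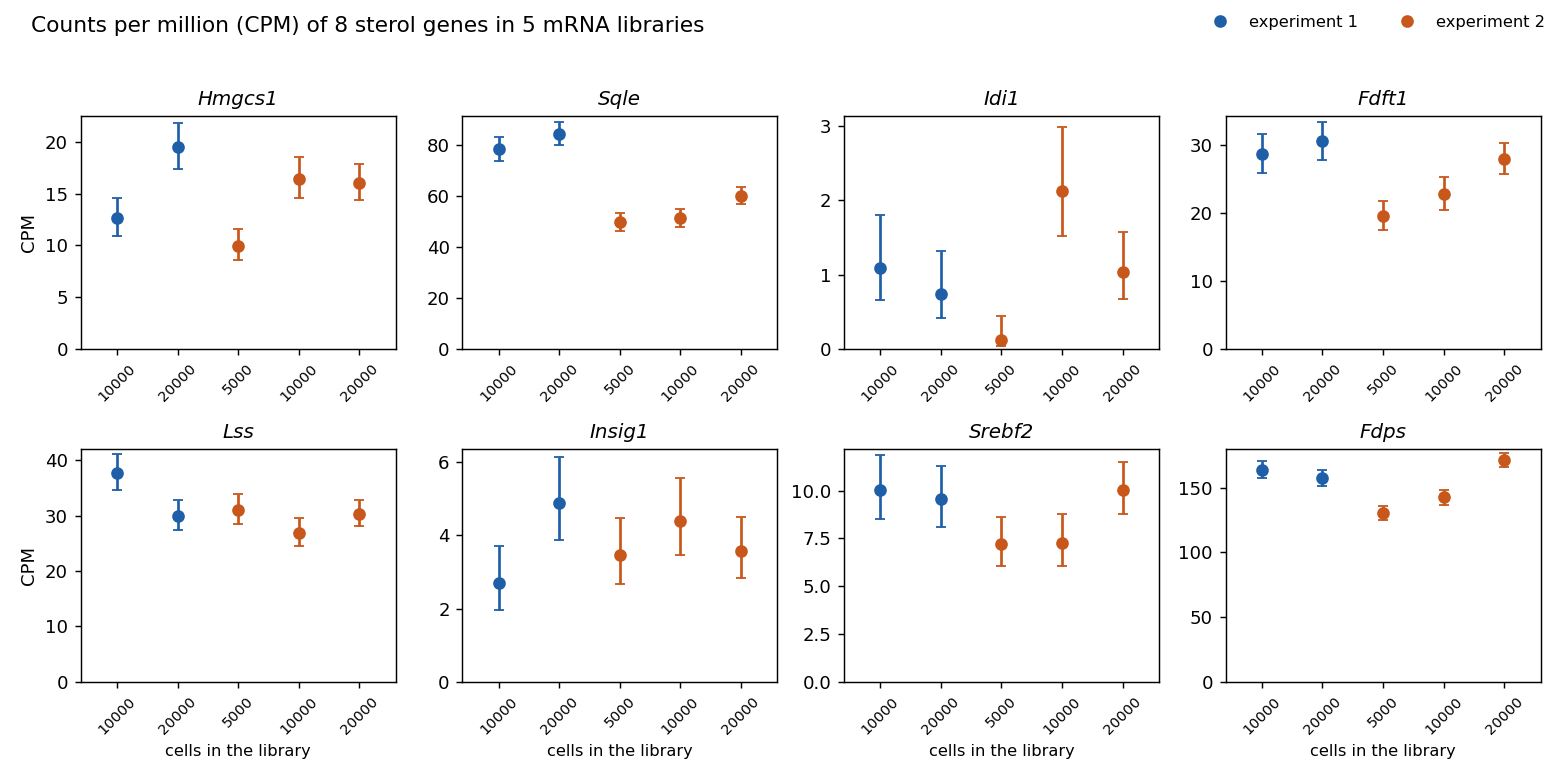
Level of each of the 8 genes in CPM in the 5 mRNA libraries, 1 panel per gene with its own linear axis from 0; each point is 1 library, coloured by experiment and labelled by cell number, and bars are 95% Wilson intervals of counting error. Sqle runs from 78.3 and 84.2 CPM in experiment 1 to 49.5, 51.1 and 59.9 CPM in experiment 2, and Idi1 has the widest relative spread, 0.119 to 2.13 CPM.

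Counted together, 1 of the 8 members was called between experiments by edgeR at an adjusted p under 0.05, and 12.5% of the 12523 genes tested were. That 1, Sqle, was lower, a direction called in 6.76% of genes, and no member was called higher, against 5.75%. A share of 1 in 8 equals the background. The 95% interval of Sqle, -0.82 to -0.28, lay below 0, and those of the other 7 members included 0. The log2 fold change was below 0 in 5 of 8 members and its median was -0.10, against 49.9% of genes below 0 and a median of 0.00 over all genes tested.

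The pathway enzymes and regulators outside the members were read from lists that do not hold every gene of the pathway. Their counts stand beside the same shares over all genes, 5.75% called higher and 6.76% called lower. Of 14 other sterol synthesis enzymes, all were tested, 1 rose and none passed the test as lower. The log2 fold change was above 0 in 8 and below 0 in 6, with a median of 0.15. The 1 was Msmo1, the methyl sterol oxidase that trims lanosterol. Msmo1 stood at 25.2 and 29.2 CPM in experiment 1 and at 45.2, 40.4 and 42.4 CPM in experiment 2 from 5000, 10000 and 20000 cells (log2 fold change 0.61 ± 0.16 SE, edgeR adjusted p = 0.0153). Sqle and Msmo1 thus passed the test in opposite directions, each in the direction of its chromosome's median. Lss, which closes the rings between these steps, was not called, and a link of direction to pathway position was not tested. Msmo1 lies on chromosome 8, with its median of 0.46, and its call was lost without the experiment 1 library from 10000 cells (edgeR adjusted p = 0.142) and without either experiment 2 library (0.0659 for 10000 cells and 0.0976 for 20000 cells). In these 3 fits the log2 fold change of Msmo1 was 0.51, 0.65 and 0.59.

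Of 10 genes of sterol sensing and SREBP processing, 1 rose and none passed the test as lower. The log2 fold change was above 0 in 8 and below 0 in 2, with a median of 0.15. The 1 that rose was Mbtps1, the site-1 protease that makes the first cut in SREBP in the Golgi. Mbtps1 stood at 62.3 and 53.8 CPM in experiment 1 and at 70.4, 79.0 and 90.4 CPM in experiment 2, a log2 fold change of 0.55 ± 0.14 (SE, edgeR adjusted p = 0.0107). It also lies on chromosome 8, where 45.2% of 409 genes of at least 10 CPM were called higher, against 8.67% of all such genes. The call of Mbtps1 was lost without the library from 20000 cells of experiment 1 (log2 fold change 0.46, edgeR adjusted p = 0.0852) or of experiment 2 (0.46, 0.119).

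Of 11 genes of uptake and trafficking, edgeR called 0 and DESeq2 0, 0 had an unadjusted p under 0.05, and the median log2 fold change was 0.27. Npc2, the lysosomal carrier that hands on cholesterol released from lipoproteins, stood at 92.4 and 97.6 CPM in experiment 1 and at 97.5, 113.6 and 111.6 CPM in experiment 2 (named after its values were seen). Its log2 fold change was 0.25 ± 0.13 (SE, edgeR adjusted p = 0.229).

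SREBP proteins also drive fatty acid synthesis, and of 13 such genes 2 rose and 1 fell. The log2 fold change was above 0 in 9 and below 0 in 4, with a median of 0.21. Acly, which makes cytosolic acetyl-CoA from citrate, rose from 124.0 and 132.0 CPM in experiment 1 to 168.2, 186.0 and 183.1 CPM in experiment 2, a log2 fold change of 0.53 ± 0.12 (SE, edgeR adjusted p = 0.00465). Without the experiment 1 library from 10000 cells the call of Acly was lost (log2 fold change 0.48, edgeR adjusted p = 0.0752). Acss2, which makes acetyl-CoA from acetate, stood at 2.84 and 2.54 CPM in experiment 1 and at 10.4 and 10.2 CPM in experiment 2 from 10000 and 20000 cells (log2 fold change 1.94 ± 0.32 SE, edgeR adjusted p = 0.000193). The experiment 2 library from 5000 cells had 3.10 CPM of Acss2, near the level of experiment 1, and with it the log2 fold change was 1.58 (edgeR adjusted p = 0.0147). Elovl6, an elongase of saturated fatty acids, stood at 72.8 and 65.8 CPM in experiment 1 and at 25.2, 39.1 and 41.0 CPM in experiment 2, a log2 fold change of -0.79 ± 0.15 (SE, edgeR adjusted p = 0.000585). Acss2 and Elovl6 kept an adjusted p under 0.05 in 4 of 4 fits that left out 1 library. Over the 6 lists, 57 of 59 genes were tested, and 4 rose and 1 fell, 5 of 57 in all, against the 12.5% called over all genes. The lists' share was not above the background.

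**Figure D3:**
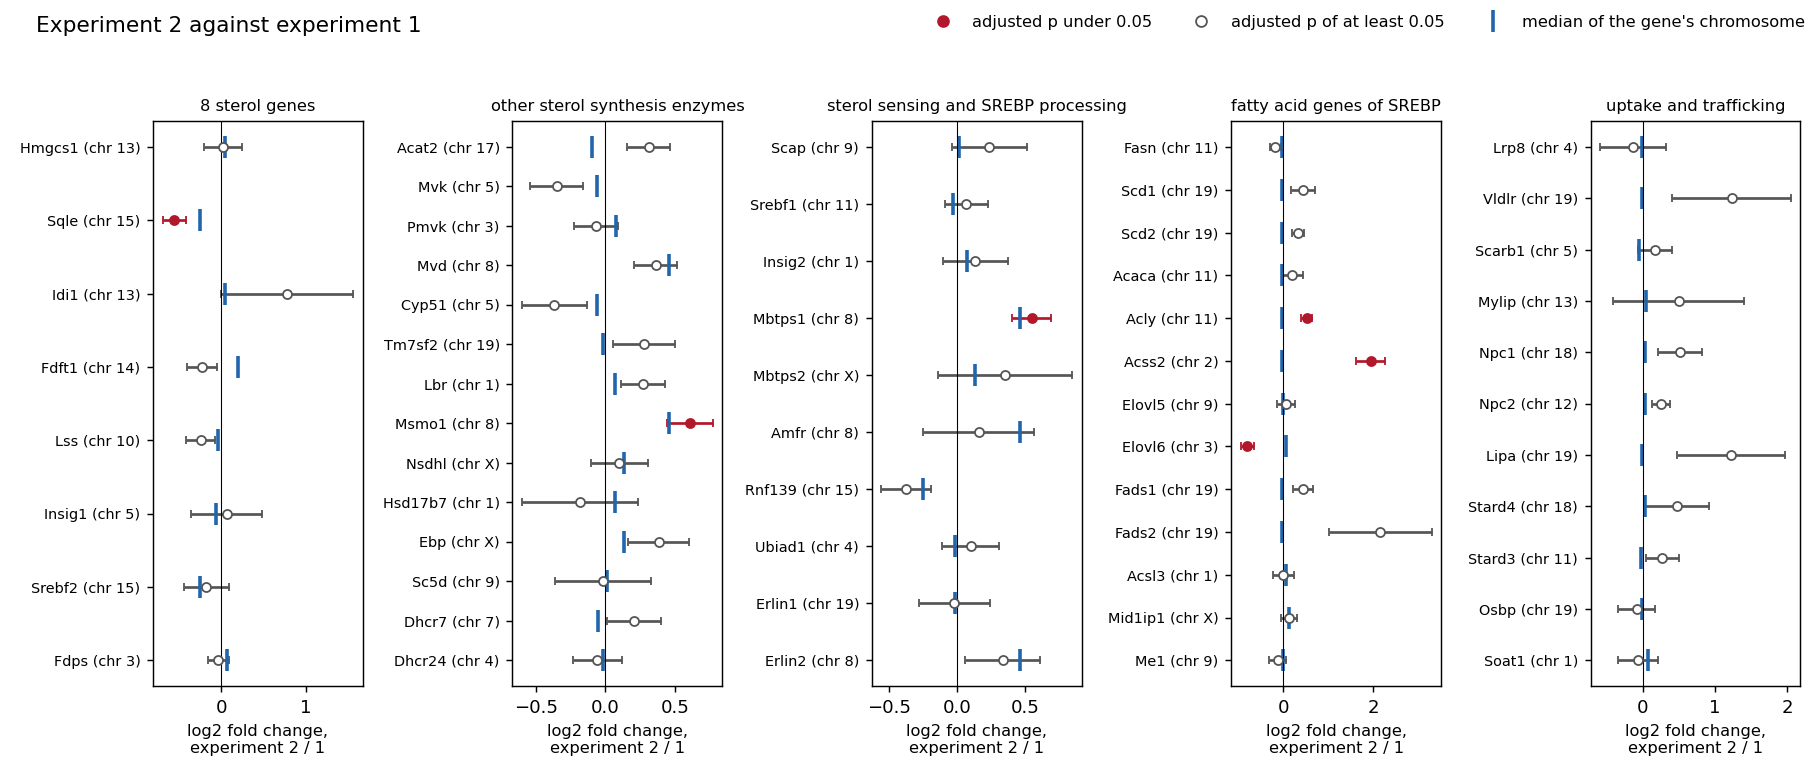
Log2 fold change, experiment 2 against experiment 1, over the libraries from 10000 and 20000 cells (edgeR), in panels for the 8 genes and for 4 of the lists; circles are fitted values with bars of 1 SE, filled red where the adjusted p was under 0.05, and blue ticks are the median of the gene's chromosome. Sqle at -0.55 is the 1 filled circle among the 8, and Msmo1 and Mbtps1 lie beside the chromosome 8 tick at 0.46.

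Cell number within the low-input protocol gave no call among the 8 members. Between 20000 and 10000 cells, 0 of 8 members passed the edgeR test, 0 had an unadjusted p under 0.05 (the lowest was 0.29 for Idi1), and DESeq2 called 0. Over all 12523 genes the share called was 0%, and 101 genes had an unadjusted p under 0.05, fewer than that threshold alone would give without differences. This fit leaves out the experiment, so differences between experiments add to its spread. It is a conservative test, and its lack of calls does not show that levels were equal. The log2 fold changes were 0.27 ± 0.27 (SE) for Hmgcs1, 0.14 ± 0.28 for Sqle, 0.08 ± 0.17 for Fdps and -0.88 ± 0.76 for Idi1, and the median of the 8 was 0.15. With the experiment as a block the SE of Sqle was 0.14 in place of 0.28, 4 of all genes were called, and still 0 members were (edgeR adjusted p = 0.998 for Sqle).

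The single library from 5000 cells was the lowest of the 5 for 6 of 8 members, all but Lss and Insig1, and for 32.8% of 11512 genes of at least 1 CPM. Against the pooled counts of the other experiment 2 libraries, its level was 0.614 for Hmgcs1 (exact interval 0.514 to 0.731), 0.760 for Fdft1 (0.668 to 0.863) and 0.820 for Fdps (0.780 to 0.862). For Sqle it was 0.883 (0.813 to 0.957), for Srebf2 0.816 (0.656 to 1.01), for Insig1 0.882 (0.638 to 1.21) and for Lss 1.07 (0.966 to 1.20). With 1 library from 5000 cells there is no replicate check.

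Over the 5 libraries, the genes whose profile lay nearest to the members' mean profile were Ppid, Cabin1, Adsl, Ipo11 and Ube4b. Likeness was the Euclidean distance between centred log2(CPM + 1) profiles, among 6480 genes outside the members that averaged 10 CPM or more. Distances were 0.0391 for Ppid, 0.0493 for Cabin1, 0.0604 for Adsl, 0.0678 for Ipo11 and 0.0699 for Ube4b, against a median of 0.495 over all candidates. The members themselves lay 0.214 (Fdps) to 0.892 (Idi1) from their own mean, of which each is a part. Only Insig1 (0.555) and Idi1, the members with the fewest counts, lay further from it than the candidates' median. The measure rests on 5 libraries of 1 cell line and is a description.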

How the data were processed

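The authors deposited whole-number counts per gene for the 5 mRNA libraries, beside gene coordinates. For ATAC they deposited bare intervals, with 1 list for each library and 1 unified list, and no height, score or p-value. Per the submitters' processing notes, mm10, cutadapt, Bowtie2 2.1.0, SAMtools 1.3.1, Picard, bedtools 2.24.0, MACS2 2.1.1, STAR 2.5, featureCounts and Subread 1.5.0-p1 were used. Their settings, whether counting was stranded, and how multi-mapping reads were handled are not given in the sources used here. In the table, 24467 of 24470 gene IDs matched a RefSeq table of GRCm38.p6.

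Groups came from the sample labels. The members and lists were chosen with earlier results of these data known. CPM were counts scaled to a library's total. Experiments and cell numbers were compared over the 4 libraries from 10000 and 20000 cells with edgeR 4.0.16 in R 4.3.3 (TMM, filterByExpr, glmQLFit and glmQLFTest). Benjamini-Hochberg adjustment ran over all genes tested, with a threshold of 0.05, and the steps were tested on simulated counts. The labels give no separate cultures within an experiment, so p-values measure the spread between libraries, which may be technical. The series' design text says that the experiments took place on different days, so the experiment number in the titles pairs libraries. Across 11512 genes (which are not independent replicates) the differences between experiments at 10000 and 20000 cells had r = 0.562. No 2 mRNA libraries agreed within sampling noise (chi-square per gene of at least 10.7).

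A start was the 5′ end of a gene in the count table. A promoter peak lay within 1000 bp of it, and any overlap counted. One listed gene is not reported here and is left out of the counts over the lists. The rule for named genes took the 8 members, at most the 3 largest called changes per list, and the 5 genes nearest in profile. Outside that rule, Npc2, Coq2, Nr1h2, Ch25h, and the marker, overlapping and neighbouring genes were picked with their values known. The alternatives were DESeq2 1.42.0, RLE factors, library size alone, other filters, a replicate block, all 5 libraries, chromosome medians, each library left out, and distances of 500 and 2500 bp, a width of at least 50 bp and the 9097 widest peaks. Values were computed with pandas 2.3.3, numpy 2.4.6 and scipy 1.17.1 under Python 3.11.15 and drawn with matplotlib 3.10.9.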

Additional observations from a re-analysis of the deposited data

Results flagged for a closer look

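For 5 members the libraries from 10000 cells and those from 20000 cells moved in opposite directions between experiments, which was not tested, since each cell number has 1 library per experiment. The log2 CPM ratio of experiment 2 to experiment 1 was 0.38 at 10000 cells and -0.28 at 20000 cells for Hmgcs1, a difference of 0.66. For Insig1 it was 0.70 and -0.45, a difference of 1.15. It was below 0 at 10000 cells and above 0 at 20000 cells for Lss (-0.49 and 0.02, a difference of -0.51), Srebf2 (-0.46 and 0.07, -0.53) and Fdps (-0.20 and 0.12, -0.33). Sqle was lower in experiment 2 at both cell numbers, by -0.61 and -0.49. Idi1 and Fdft1 also kept their direction.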

How the results depend on the processing

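Sqle was called lower in experiment 2 under each alternative normalization, filter and tool that was run. The number of members called between experiments was 0 to 1 when each library was left out in turn, as given with Sqle in the report, and the cause was not tested. With the cell number as a replicate block Sqle lay at -0.55 (edgeR adjusted p = 0.00323), and the block changed no member's call in either comparison. Relative to the chromosome median, Sqle was -0.30 and Fdft1 -0.42, and 2 members that were not called changed sign, Srebf2 to 0.078 and Hmgcs1 to -0.026. With all 5 libraries the log2 fold change of Hmgcs1 was -0.15. Directions of members that were not called also turned when 1 library was left out. Between experiments the log2 fold change then ran from -0.26 to 0.38 for Hmgcs1 and from -0.30 to 0.58 for Insig1, both lowest without experiment 1 from 10000 cells. Without experiment 2 from 10000 cells Insig1 was -0.081. It ran from -0.41 to 0.039 for Srebf2 and from -0.16 to 0.10 for Fdps, both highest without experiment 2 from 10000 cells. Between cell numbers it ran from -0.12 to 0.48 for Sqle, -0.32 to 0.15 for Lss, -0.068 to 0.65 for Insig1 and -0.035 to 0.41 for Srebf2. Over all genes, 1567 were called between experiments, against 1018 without experiment 1 from 10000 cells, 803 without experiment 2 from 10000 cells 869 without experiment 2 from 20000 cells, 1817 without experiment 1 from 20000 cells and 1765 with the block. Of the genes of the 6 lists 5 were called, against 3 without experiment 1 from 10000 cells, 3 without experiment 2 from 20000 cells, 7 without experiment 1 from 20000 cells, and 6 both with all 5 libraries and with the block. Between cell numbers 0 of all genes were called, against 4 with the replicate block and 2 with no filter. Of the genes of the 6 lists, 0 were called between cell numbers in each of these fits. Of the 8 members, 6 had promoter peaks in all 8 lists at 500 bp and with RefSeq starts, 7 at 2500 bp, 4 with peaks of at least 50 bp and 5 with the 9097 widest. Depth limits Idi1 and Insig1 most.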

Other observations

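Of 5 genes of the other isoprenoid branch, 0 were called between experiments by edgeR and by DESeq2 over the libraries from 10000 and 20000 cells, and 1 had an unadjusted p under 0.05, with a median log2 fold change of -0.13. Coq2, a step of ubiquinone synthesis, stood at 9.18 and 8.63 CPM in experiment 1 and at 15.2, 14.1 and 13.4 CPM in experiment 2. Its log2 fold change was 0.63 ± 0.24 (SE, edgeR adjusted p = 0.0866), and with all 5 libraries it was 0.72 and passed the test (edgeR adjusted p = 0.0408). Of 6 genes of LXR signalling and cholesterol efflux, 4 were tested and 0 called by either tool, and 1 had an unadjusted p under 0.05, with a median of 0.10. Nr1h2, the nuclear receptor LXR beta, stood at 62.9 and 66.3 CPM in experiment 1 and at 50.6, 45.1 and 51.9 CPM in experiment 2. Its log2 fold change of -0.41 ± 0.14 (SE) did not pass the test (edgeR adjusted p = 0.0622). Ch25h, which makes an oxysterol, had 0 counts in all 5 libraries. Coq2, Nr1h2 and Ch25h were chosen after their values were seen.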
